A study of Mus musculus with 12 samples.

Results

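The genes described here are sensors of DNA damage, repair factors and targets of the tumour suppressor p53, measured in the cerebellum of mice lacking Ciz1. They were chosen by name for their known function, with earlier results of these data known. A gene was measured where a row of the array carried its symbol alone, with the brightest row taken where there were several. Of the 31 genes named, 27 were measured, out of 22180 genes on the array. H2afx was matched through its current symbol, H2ax, by gene ID. Ddb2, Trp53, Gadd45a and Bax had no row of their name alone and were not analysed here.

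DNA breaks and stalled replication forks activate the kinases ATM and ATR, which signal through CHK1 and CHK2, mark chromatin around the break and stabilise p53. Stabilised p53 switches on genes that halt the cell cycle, aid repair, limit growth signalling or promote cell death, together with Mdm2, whose product in turn marks p53 for degradation. Most cells of the adult cerebellum are neurons that no longer divide, and in them the same genes also serve repair, the response to stress and cell death. Ciz1 encodes a zinc-finger protein that was named for its binding to p21, the cell cycle inhibitor encoded by Cdkn1a.

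The study hybridised cerebellar RNA of each mouse to its own Affymetrix whole-transcript array, 12 in all. There were 3 male and 3 female mice lacking Ciz1 on both alleles (KO) and 3 male and 3 female control mice (WT), aged 10 months by the extraction protocol and 6 to 10 months by the design text. The source names call the controls wild type and the protocol gives Ciz1+/+, while their genotype field reads Ciz1+/-. The series title calls the deficiency germline, and the labels do not say how the allele was made or on what strain the mice were kept. The study asked which genes accompany the movement phenotypes of mice without Ciz1. Values below are log2 of the deposited intensity, differences are KO minus WT on that scale, and the number of arrays limits their precision.

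Ciz1 itself read 6.82 to 7.31 on the KO arrays, against 8.70 to 8.90 on the WT arrays, a difference of -1.64 (SE 0.07, limma adjusted p = 1.42e-06). Array medians lay between 96.5 and 98.7 before the log was taken. Markers of Purkinje cells averaged 11.07 to 11.30 on KO arrays and 11.08 to 11.19 on WT arrays, and those of granule cells 10.45 to 10.66 and 10.50 to 10.55, so that the neurons of the labelled tissue were represented on every array. Of 9 markers of dividing cells 1 was above background, and of 4 forebrain markers 1. Markers of the choroid plexus, a secretory tissue that adjoins the cerebellum, varied widely from mouse to mouse, with means of 6.40 to 7.54 on KO arrays and 6.57 to 7.96 on WT arrays. Background was taken as the 95th percentile of the mean signal of 1105 olfactory receptor genes, which was 6.47. By that measure 20 of the 27 genes were above background, and Chek1, Chek2, Brca1, Bbc3, Pmaip1, Fas and Eda2r were not shown to be.

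None of the 27 genes passed the test between KO and WT mice, over both sexes or within either. Over both sexes 0 of 27 had a limma adjusted p under 0.05, where 5 of all 22180 genes did (0.0225%), and the smallest adjusted p of the 27 was 0.399. At an unadjusted p under 0.05 there were 3 of 27, Cdkn1a with the KO mean above the WT mean and Btg2 and Phlda3 with it below, where 9.26% of all genes lay. The median difference was -0.02 over the 27 and -7e-04 over all genes, and the median size of a difference was 0.06 and 0.05. For none of the 27 did the 6 KO arrays and the 6 WT arrays separate without overlap, as they did for 0.55% of all genes. The widest 95% interval of a difference ran from -0.40 to 0.29 (Perp). Such an interval is for 1 gene and does not give the size of change that the adjusted test would call. Cdkn1a, at 0.31 with an interval of 0.04 to 0.57, had a limma adjusted p of 0.499. The absence of calls thus does not show an absence of changes of such a size in any of the 27.

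Within males 0 of 27 passed and the smallest adjusted p was 0.72, beside 0.0225% of all genes called. Mdm2 and Fas had an unadjusted p under 0.05 (2 of 27, against 5.42% of all genes). Within females 0 of 27 passed and the smallest adjusted p was 0.374, again beside 0.0225% of all genes. Cdkn1a and Phlda3 had an unadjusted p under 0.05 there (2 of 27, against 8.49% of all genes). The 3 KO and 3 WT arrays did not overlap for 3 of 27 genes in males (Mdm2 and Btg2 lower, Fas higher; 10.3% of all genes) and for 3 of 27 in females (Ccng1, Btg2 and Phlda3 lower; 14.9% of all genes). Each of these shares of the 27 lies near the share of all genes or is 0.

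**Figure D1:**
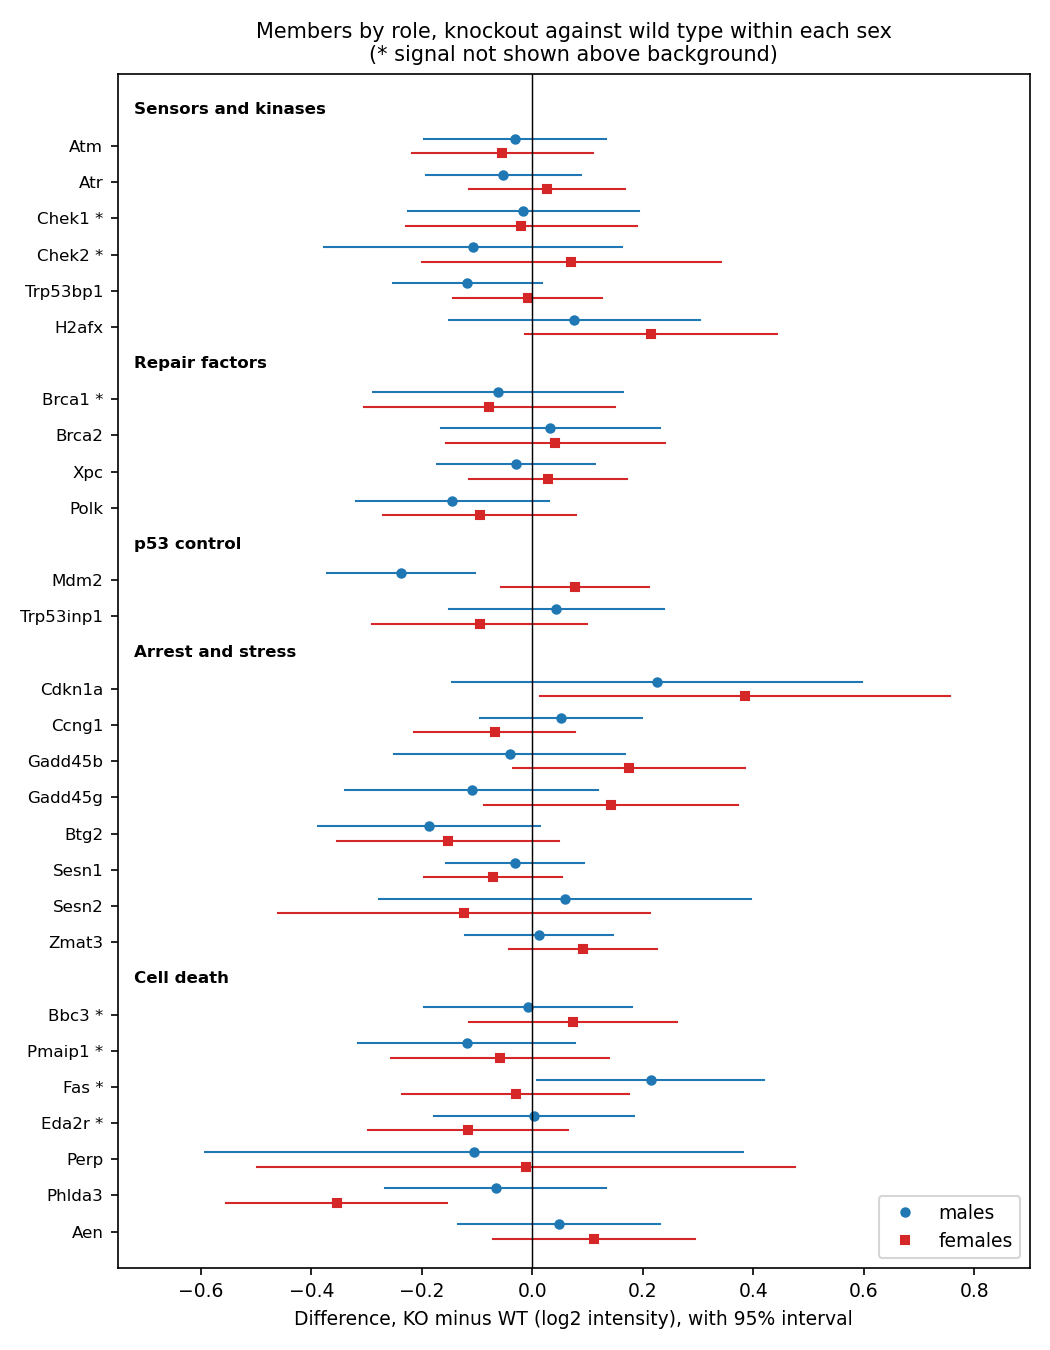
The difference between KO and WT mice (x axis, log2 intensity, with its 95% interval) of the 27 genes by role, in males (circles) and females (squares), 3 arrays per group; genes with an asterisk were not shown above background. Most intervals span 0, and the intervals that do not are those of Mdm2 and Fas in males and of Cdkn1a and Phlda3 in females.

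The sequences just upstream of 4 genes are printed because these had the largest differences over both sexes or within a sex among p53 targets above background, and because binding of p53 to DNA is what defines such a target. They are the 250 bases before an annotated start in RefSeq, build GRCm38.p6, 5′ to 3′ on the gene's strand. Capitals mark a p53 half-site (the consensus decamer, which is its own reverse complement) or, in Btg2, the cAMP response element TGACGTCA, also its own reverse complement. Both strands were searched, and no match of one motif overlapped a match of the other in these 4 sequences.
Cdkn1a, chr17:29090729-29090978, plus strand: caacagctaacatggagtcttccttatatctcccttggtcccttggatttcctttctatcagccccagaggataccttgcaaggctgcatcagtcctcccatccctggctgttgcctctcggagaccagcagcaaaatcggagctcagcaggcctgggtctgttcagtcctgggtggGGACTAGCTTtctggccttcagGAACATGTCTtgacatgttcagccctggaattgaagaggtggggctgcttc
Mdm2, chr10:117710759-117711008, minus strand: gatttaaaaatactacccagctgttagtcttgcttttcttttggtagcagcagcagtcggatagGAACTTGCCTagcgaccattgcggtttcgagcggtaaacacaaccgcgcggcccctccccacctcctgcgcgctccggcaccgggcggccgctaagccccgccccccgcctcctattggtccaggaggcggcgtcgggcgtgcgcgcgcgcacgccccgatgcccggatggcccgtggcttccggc
Btg2, chr1:134079156-134079405, minus strand: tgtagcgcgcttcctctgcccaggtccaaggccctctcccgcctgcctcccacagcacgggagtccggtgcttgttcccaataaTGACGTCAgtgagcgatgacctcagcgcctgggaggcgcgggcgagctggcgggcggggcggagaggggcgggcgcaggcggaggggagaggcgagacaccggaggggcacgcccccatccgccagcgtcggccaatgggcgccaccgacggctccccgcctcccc
Phlda3, chr1:135765835-135766084, plus strand: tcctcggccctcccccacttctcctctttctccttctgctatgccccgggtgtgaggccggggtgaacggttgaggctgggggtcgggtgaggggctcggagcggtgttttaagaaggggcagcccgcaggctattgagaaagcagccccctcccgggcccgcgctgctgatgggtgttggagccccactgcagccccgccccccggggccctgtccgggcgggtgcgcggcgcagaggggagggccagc

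The Cdkn1a sequence held a pair of exact half-sites, whose first bases lay 73 and 51 bases before the start with 12 bases between them. The decamer directly after the second of these misses the consensus at its first base only, so it was not marked. The spacing given is thus that of the exact matches alone. The 250 bases before the other RefSeq start of Cdkn1a, at chr17:29093519-29093768, held no exact half-site. Mdm2 held 1 half-site, 186 bases before the start, and Btg2 a cAMP response element 166 bases before it. The Phlda3 stretch held neither motif. Of the 27 genes, 21 matched the RefSeq table, with 27 promoters among them, and 6 of these promoters (22.2%) held a half-site, against 7.13% of all 32851 promoters of the table. A pair of half-sites was in 1 of 27 (3.7%) and in 0.0639% of all promoters, and the cAMP response element in 2 of 27 (7.41%, Btg2 and Brca2) and in 1.55%. The other half-sites were those of Polk, Ccng1, Sesn1 and Aen. A match of letters is not a bound site. The search took only exact matches within these 250 bases, so a site with a mismatch or outside the stretch was not counted.

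Among the sensors and kinases no gene passed the test, and none of the 6 had an unadjusted p under 0.05 over both sexes. The largest difference was that of H2afx, the histone variant that is phosphorylated in chromatin around a break. H2afx read 8.85, 8.66 and 8.58 in KO males and 8.81, 8.82 and 9.04 in KO females, against 8.59, 8.51 and 8.77 in WT males and 8.84, 8.65 and 8.55 in WT females. The highest value was a KO female's, and the groups overlapped in both sexes. The difference was 0.15 (SE 0.07, 95% interval -0.02 to 0.31, limma adjusted p = 0.574). Trp53bp1, which binds chromatin at double-strand breaks, differed by -0.06 (adjusted p = 0.688 by limma). Atm, the kinase that responds to such breaks, differed by -0.04 (interval -0.16 to 0.07), and Atr, the kinase that responds to stalled forks, by -0.01 (interval -0.11 to 0.09). The checkpoint kinases Chek1 and Chek2 each differed by -0.02 at a signal not shown above background, which leaves their true change unknown.

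The repair factors showed the same absence of calls. Polk encodes a DNA polymerase that copies past damaged bases. Polk read 8.20, 7.89 and 8.05 in KO males and 7.99, 7.99 and 7.92 in KO females, against 8.11, 8.23 and 8.23 in WT males and 8.10, 8.10 and 7.98 in WT females. The lowest value was in a KO male and the KO groups overlapped the WT groups. The difference was -0.12 (SE 0.06, 95% interval -0.24 to 0.003), with an unadjusted p of 0.0556 and a limma adjusted p of 0.546. Xpc, which recognises distorted DNA in nucleotide excision repair, had the same mean in KO and WT mice (7.16 ± 0.07 and 7.16 ± 0.05, SD, n = 6 each). Brca2, which acts in homologous recombination, differed by 0.04 (interval -0.10 to 0.18). Brca1, which acts in the same pathway, differed by -0.07 and was not shown above background.

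Oligodendrocyte markers are given beside Polk because they too had lower means in KO mice. All 12 of the measured markers had a KO mean below the WT mean, with a median difference of -0.28. Only Opalin, a myelin membrane protein, passed the test (-0.45, limma adjusted p = 0.037). The 3 brightest were Mobp (-0.18), Cldn11 (-0.28) and Mbp (-0.21), all genes of the myelin sheath. The mean of the 12 markers ran from 8.70 to 9.16 on KO arrays and from 9.03 to 9.22 on WT arrays. Within groups Polk and this mean varied together (Pearson's r = 0.84, exact permutation p = 0.0586; Spearman's rho = 0.78, exact permutation p = 0.0363; 12 arrays), and r was 0.51 without the 2 arrays farthest from the median. Adjusted over the 297 relations between a gene and a list these p-values were 0.78 and 0.847. Of the 297 relations, 16 had an exact permutation p of Pearson's r under 0.05, and none after adjustment. Polk also varied with the granule cell mean (r = 0.77, exact permutation p = 0.0178, adjusted p = 0.78, rho = 0.55). Sesn1 also varied with the oligodendrocyte mean (r = 0.73, exact permutation p = 0.0116, adjusted p = 0.78). The relation was thus particular neither to Polk nor to these markers. The median difference of the oligodendrocyte markers was -0.37 in females and -0.17 in males, and the difference of Polk was -0.10 in females and -0.14 in males. The test of the sex difference called 0 of the 12 markers and not Polk. With the oligodendrocyte mean as a covariate, an alternative chosen after seeing the data, the difference of Polk was 0.06 (unadjusted p = 0.408). That mean itself was lower in KO mice, so this fit takes out part of any genotype difference along with it. Why Polk differed was not tested. In RNA of whole tissue, fewer cells of a type and less RNA in each cell cannot be told apart.

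Of the genes that set the level of p53 none passed the test, and the differences of Mdm2 had opposite signs in males and females. Mdm2, the ubiquitin ligase of p53 and itself its target, read 8.17, 8.19 and 8.11 in KO males against 8.40, 8.42 and 8.36 in WT males. It read 8.38, 8.20 and 8.24 in KO females against 8.23, 8.21 and 8.14 in WT females. All 3 KO males lay below all 3 WT males, while KO and WT females overlapped. The difference was -0.24 in males (SE 0.06, 95% interval -0.37 to -0.10, unadjusted p = 0.00227, limma adjusted p = 0.72) and 0.08 in females (interval -0.06 to 0.21). The effect in females minus the effect in males was 0.31 (SE 0.09, unadjusted p = 0.00355, limma adjusted p = 0.99), and with any 1 array left out it stayed between 0.26 and 0.35. For the interaction 0 of 27 genes passed, as did 0 of all genes (0%). At an unadjusted p under 0.05 there were 2 of 27 (Mdm2 and Phlda3), against 4.82% of all genes. Trp53inp1, a p53 target that acts in autophagy and cell death, differed by -0.03 over both sexes (interval -0.16 to 0.11).

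The genes of growth arrest and stress held the largest difference of the 27 over both sexes, that of Cdkn1a. Cdkn1a read 8.99, 9.39 and 9.11 in KO males and 9.14, 9.56 and 9.84 in KO females, against 8.71, 8.97 and 9.13 in WT males and 8.97, 9.22 and 9.19 in WT females. The 3 highest values were those of 3 KO mice, and the other 3 KO mice lay within the range of the WT mice. The difference was 0.31 (SE 0.12, 95% interval 0.04 to 0.57, 1.24-fold higher), with an unadjusted p of 0.0263 and a limma adjusted p of 0.499. It was 0.23 in males (adjusted p = 0.947 by limma) and 0.39 in females (adjusted p = 0.571). Without KO female 3, the highest array, it was 0.22 over both sexes (unadjusted p = 0.067) and 0.22 in females (unadjusted p = 0.205).

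Cdkn1a is also a known target of the glucocorticoid receptor, and the same array stood highest for glucocorticoid-responsive genes. The mean of 10 such genes was 8.57 in KO female 3 and 8.24 to 8.35 on the other KO arrays, against 8.20 to 8.35 on the WT arrays. Of the 10 genes, 6 had a KO mean above the WT mean and 4 below, and none passed the test; the 3 brightest were Mt2 (0.10), Sgk1 (-0.08) and Errfi1 (-0.10). Zbtb16, named after its values were seen, read 9.19 in KO female 3 and 8.07 to 8.49 on the other KO arrays, against 7.61 to 8.27 on the WT arrays (difference 0.49, limma adjusted p = 0.35). Within groups Cdkn1a and the list mean varied together (r = 0.77, exact permutation p = 0.0664; rho = 0.69, exact permutation p = 0.0687; adjusted p = 0.78 and 0.847), and r was 0.48 without the 2 farthest arrays. Xpc and H2afx also varied with this mean (r = 0.83 and 0.605, exact permutation p = 0.0741 and 0.0594, adjusted p = 0.78 for each). The relation was thus not particular to Cdkn1a. With the list mean as a covariate, chosen after seeing the data, the difference of Cdkn1a was 0.18 (unadjusted p = 0.0667). The list mean was itself higher in KO mice, with a median difference of 0.08 over the 10 genes. This fit thus takes out part of any genotype difference along with it. The highest unadjusted limma p of Cdkn1a over all alternatives run was 0.369, and the cause of these shifts was not tested.

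Btg2 differed in the opposite direction. It encodes an antiproliferative protein that p53 induces and that neurons also switch on with electrical activity. Btg2 read 8.44, 8.44 and 8.20 in KO males and 8.23, 8.33 and 8.31 in KO females, against 8.46, 8.68 and 8.50 in WT males and 8.37, 8.60 and 8.35 in WT females. Within each sex every KO array lay below every WT array, but the KO males and the WT females overlapped. The difference was -0.17 (SE 0.07, 95% interval -0.31 to -0.03), with an unadjusted p of 0.0235 and a limma adjusted p of 0.492. It was -0.19 in males and -0.15 in females. Without single arrays the male value ranged from -0.23 to -0.11, the smallest without KO male 3, and the female value from -0.20 to -0.07, the smallest without WT female 2.

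Genes induced by neuronal activity had lower means in KO mice alongside Btg2. All 15 of them lay below the WT mean, with a median difference of -0.14, though none passed the test. This list, like the others, was chosen with earlier results of these data known, so the shared direction is not an independent test. The 3 brightest were Per1 (-0.10), Nr4a1 (-0.44) and Dusp1 (-0.32), a clock gene, an orphan nuclear receptor and a phosphatase of MAP kinases. The mean of the 15 ran from 7.83 to 8.10 on KO arrays and from 8.01 to 8.32 on WT arrays. Within groups it varied with Btg2 (r = 0.67, exact permutation p = 0.0833; rho = 0.58, exact permutation p = 0.142; adjusted p = 0.78 and 0.861), and r was 0.39 without the 2 farthest arrays. With this mean as a covariate, chosen after seeing the data, the difference of Btg2 was -0.024 (unadjusted p = 0.783). The mean itself was lower in KO mice, so this fit takes out part of any genotype difference along with it. Why Btg2 differed was not tested.

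**Figure D2:**
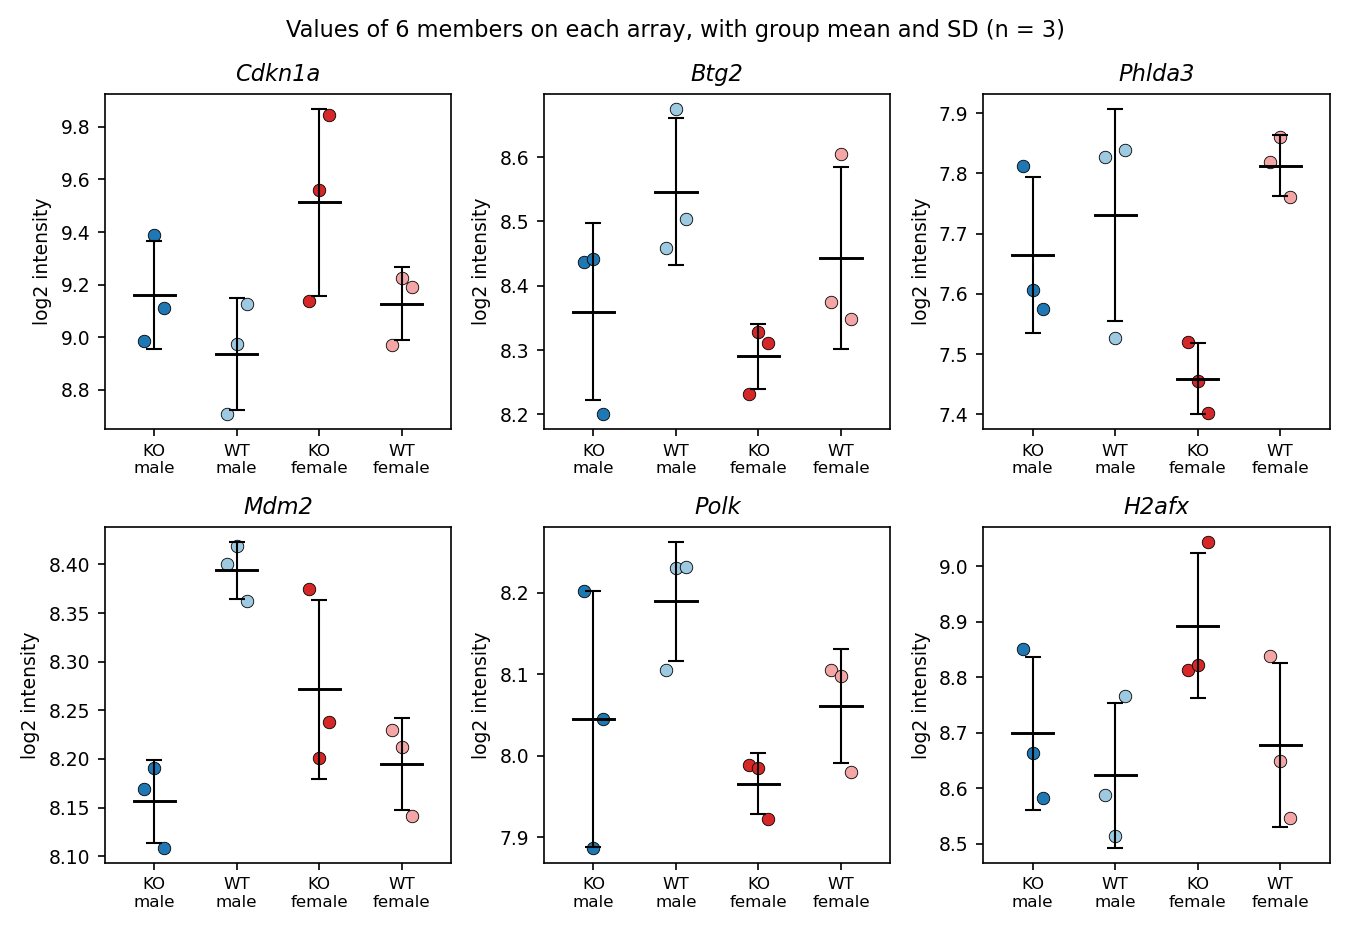
Values of 6 genes on each array (y axis, log2 intensity) in KO and WT males and KO and WT females; points are arrays, the thick line is the group mean and the bar its SD (n = 3). Cdkn1a reaches 9.84 in KO female 3, all 3 KO females lie below the WT females for Phlda3, and all 3 KO males lie below the WT males for Mdm2.

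The other genes of this role differed by 0.07 or less in either direction. Gadd45b and Gadd45g, stress-induced genes of growth arrest, differed by 0.07 and 0.02 over both sexes. Gadd45b had a difference of -0.04 in males and 0.17 in females, and Gadd45g of -0.11 and 0.14, and the test of the sex difference gave unadjusted p-values of 0.139 and 0.116. The sestrins Sesn1 and Sesn2, which restrain growth signalling through mTORC1, differed by -0.05 and -0.03. Zmat3, an RNA-binding zinc-finger protein induced by p53, differed by 0.05. Ccng1, the p53 target cyclin G1, differed by -0.009 over both sexes. In females Ccng1 read 10.33, 10.29 and 10.21 in KO mice against 10.34, 10.36 and 10.34 in WT mice. These did not overlap, but the gap between the groups was small beside the shared spread (difference -0.07, SE 0.07, limma adjusted p = 0.816).

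Among the genes of cell death was Phlda3, which had the smallest p of the 27 over both sexes. Its product carries a lipid-binding domain and competes with the kinase AKT for the membrane. Phlda3 read 7.81, 7.61 and 7.58 in KO males and 7.52, 7.46 and 7.40 in KO females, against 7.83, 7.53 and 7.84 in WT males and 7.82, 7.86 and 7.76 in WT females. All 3 KO females lay below all 3 WT females, and the males overlapped. The difference was -0.35 in females (SE 0.09, 95% interval -0.55 to -0.15, 1.28-fold lower, unadjusted p = 0.00236, limma adjusted p = 0.374) and -0.07 in males (interval -0.27 to 0.13). Over both sexes it was -0.21 (SE 0.06, interval -0.35 to -0.07, unadjusted p = 0.00726, limma adjusted p = 0.399). The difference between the sexes was -0.29 (unadjusted p = 0.0468, limma adjusted p = 0.998), and it was -0.19 without WT male 2.

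The remaining death genes gave no call. Fas, a death receptor, read 5.05, 5.28 and 5.21 in KO males against 4.99, 5.03 and 4.89 in WT males, and 4.87, 5.03 and 5.24 in KO females against 5.01, 5.10 and 5.13 in WT females. The male groups did not overlap (difference 0.21, SE 0.09, limma adjusted p = 0.9), but every value of Fas lay below the background limit of 6.47. Bbc3 and Pmaip1, which encode the BH3-only proteins PUMA and NOXA, and Eda2r, a receptor of the TNF receptor family, were not shown above background either and differed by 0.03, -0.09 and -0.06. Aen, a nuclease that degrades DNA during apoptosis, differed by 0.08 (interval -0.05 to 0.21).

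Perp, a p53 effector of cell junctions, was the most variable of the 27, with a within-group SD of 0.32 where the median over the 27 was 0.11. It read 6.22, 6.75 and 6.51 in KO males and 6.34, 6.97 and 6.22 in KO females, against 6.68, 6.35 and 6.79 in WT males and 6.22, 6.91 and 6.43 in WT females. High and low arrays occurred in each group, and the difference was -0.06 (interval -0.40 to 0.29, limma adjusted p = 0.944). The mean signal of Perp, 6.53, lay close to the background limit of 6.47, and in each group some signal fell below that limit. Choroid plexus markers varied with Perp: r was 0.77 (exact permutation p = 0.0232) and rho 0.66, and r was 0.77 without the 2 farthest arrays, with an adjusted p of 0.78. Sesn1, Gadd45b and Aen varied against the mean of these markers (r = -0.77, -0.75 and -0.62). Their exact permutation p-values were 0.00926, 0.00386 and 0.0455, with an adjusted p of 0.78 for each. The relation was thus not particular to Perp. All 14 of the choroid plexus markers had a KO mean below the WT mean and none passed the test. The 3 brightest were Ttr (-1.15), Kl (-0.76) and Clic6 (-0.15). With the mean of the 14 markers as a covariate the difference of Perp was 0.09. That mean was itself lower in KO mice, and the cause of the shift was not tested.

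**Figure D3:**
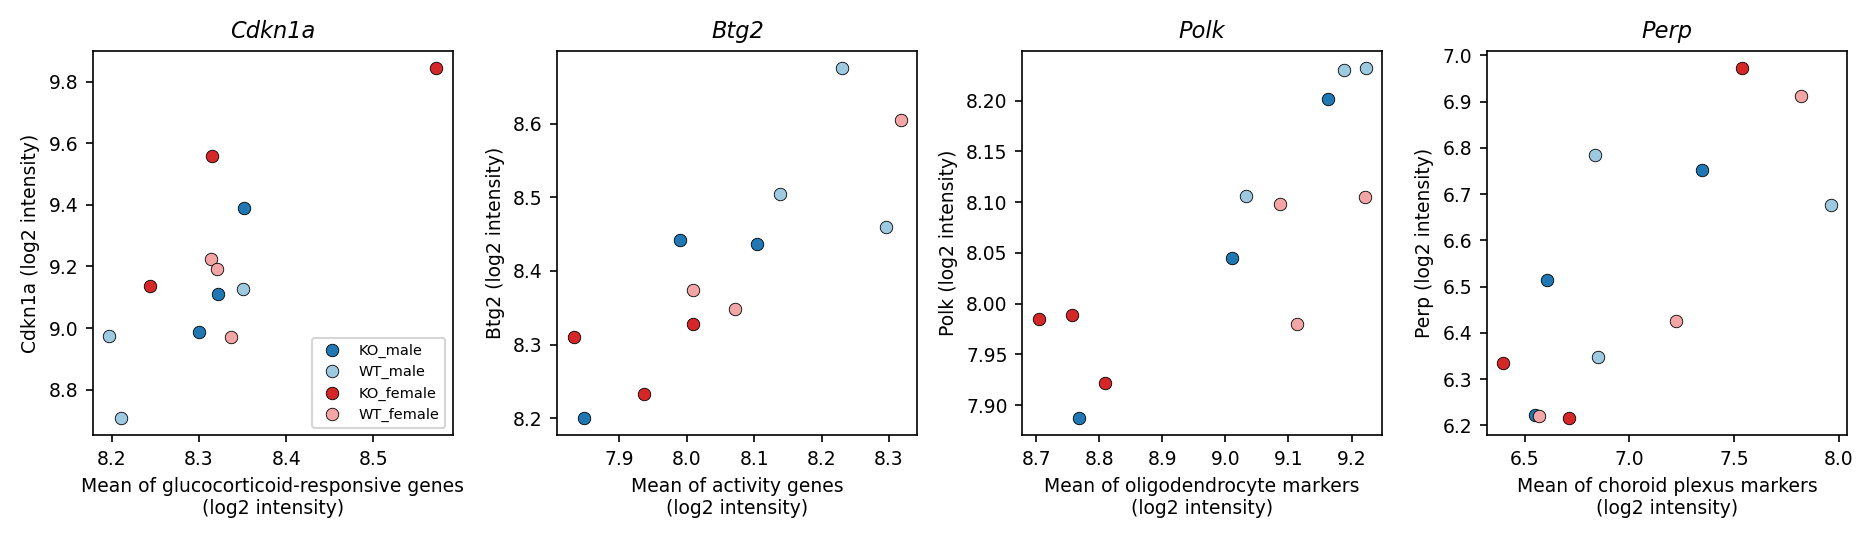
Each point is 1 array, coloured by group, with the value of a gene (y axis, log2 intensity) against the mean of a list (x axis, log2 intensity): Cdkn1a and glucocorticoid-responsive genes, Btg2 and genes induced by neuronal activity, Polk and oligodendrocyte markers, Perp and choroid plexus markers. KO female 3 lies apart in the Cdkn1a panel, at 9.84 with a list mean of 8.57.

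Pairs of the 27 genes showed no shared movement beyond their groups that held after adjustment. Deviations from the group means were correlated for all 351 pairs, over 12 arrays that share their RNA and normalization. The median r was 0.05, with quartiles of -0.24 and 0.30, and 196 pairs were above 0. By exact permutation of arrays within groups 24 pairs had p under 0.05, and none after adjustment over the 351. The strongest was Sesn1 with Perp (r = -0.92, exact permutation p = 0.00154, adjusted p = 0.339; rho = -0.93, exact permutation p = 0.00154, adjusted p = 0.406; r = -0.90 without the 2 farthest arrays). Sesn1 also ran against the choroid plexus mean that Perp ran with (r = -0.77, exact permutation p = 0.00926, adjusted p = 0.78; rho = -0.66, exact permutation p = 0.034). The pair of Cdkn1a and Mdm2, both textbook targets of p53, was not among those with p under 0.05. Its r was -0.53 (exact permutation p = 0.277, adjusted p = 0.949, rho = -0.32), and -0.28 without the 2 farthest arrays.

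**Figure D4:**
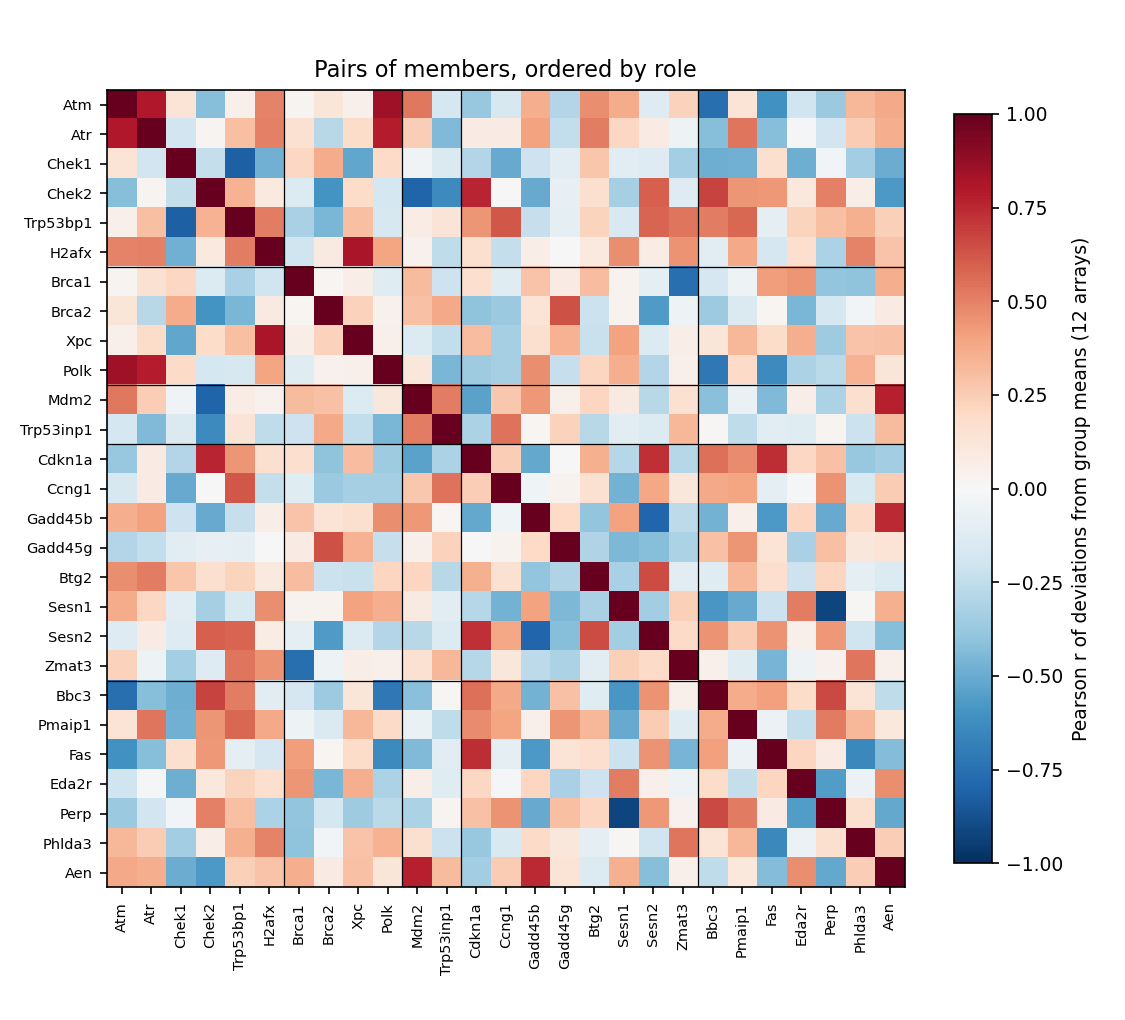
Pearson's r of the deviations from group means for each pair of the 27 genes (12 arrays), ordered by role with lines between roles; red is above 0 and blue below. No block of a role stands out, and the deepest blue cell off the diagonal is Sesn1 with Perp at -0.92.

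The wider damage response, 126 genes of signalling, repair and p53 control listed by function, gave no call either. Of these 114 were measured, and 0 passed the test over both sexes, in males, in females or for the interaction. At an unadjusted p under 0.05 there were 7 over both sexes (6.14%, against 9.26% of all genes), 3 with a KO mean above the WT mean and 4 below, and the median difference was -0.0077. The smallest p was that of Rad9a, a subunit of the clamp that is loaded at damaged DNA and helps activate ATR. Rad9a read 9.04, 8.99 and 9.14 in KO males and 9.08, 9.16 and 9.24 in KO females, against 8.88, 8.98 and 8.96 in WT males and 9.01, 8.94 and 8.86 in WT females. Every KO array but KO male 2 lay above every WT array (difference 0.17, SE 0.05, limma adjusted p = 0.329).

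The genes next by p were spread over roles, and Mdc1, Sfn and Ddb1 among them were not under an unadjusted p of 0.05. Above 0 were Gpx1 (0.14), a glutathione peroxidase, Ckap2 (0.10, not shown above background), Mdc1 (0.10), which binds phosphorylated H2AX, and Sfn (0.12), a 14-3-3 protein. Below 0 were Wee1 (-0.13), the kinase that holds back entry into mitosis, Fancc (-0.15) of the Fanconi pathway, Ppm1d (-0.13), the phosphatase that ends p53 signalling, Poll (-0.12), a polymerase of end joining, and Ddb1 (-0.08), a partner of the damage sensor encoded by Ddb2. The adjusted p-values of these 9 genes lay between 0.48 and 0.612 by limma. By role the members with a KO mean above the WT mean were 13 of 18 in damage signalling, 4 of 12 in p53 control, 10 of 24 among further p53 targets, 6 of 17 in recombination, 4 of 7 in end joining, 4 of 10 in nucleotide excision, 8 of 15 in base excision, 1 of 5 in mismatch repair and 3 of 6 in translesion synthesis, against 49.6% of all genes.

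Within males 5 of the 114 had an unadjusted p under 0.05 (5.42% of all genes did), 4 above 0 and 1 below. The smallest p above 0 were those of Nhej1 (0.18), Neil3 (0.22, not shown above background) and Gpx1 (0.21). Below 0 the 1 gene was Wee1 (-0.21), and next by p but not under 0.05 were Rad50 (-0.21) and Tnfrsf10b (-0.25, not shown above background). Within females there were 8 (8.49% of all genes), 3 above 0 and 5 below. Those above were Rad9a (0.23), Rad51c (0.14) and Rprm (0.15), and the smallest p below were those of Fancc (-0.26), Sesn3 (-0.22) and Poll (-0.22). For the interaction there were 6 (4.82% of all genes), 2 above 0 and 4 below. Those above were Rprm (0.26) and Rad50 (0.34), with Polh (0.23) next by p but not under 0.05, and the smallest p below were those of Nhej1 (-0.22), Neil3 (-0.27) and Plk3 (-0.31). Rprm, a p53-induced arrest gene, read 6.68, 6.70 and 6.66 in KO males against 6.81, 6.82 and 6.75 in WT males. It read 6.78, 6.92 and 6.98 in KO females against 6.74, 6.68 and 6.83 in WT females, and its interaction had a limma adjusted p of 0.99. All 3 KO males lay below all 3 WT males, while the females overlapped.

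**Figure D5:**
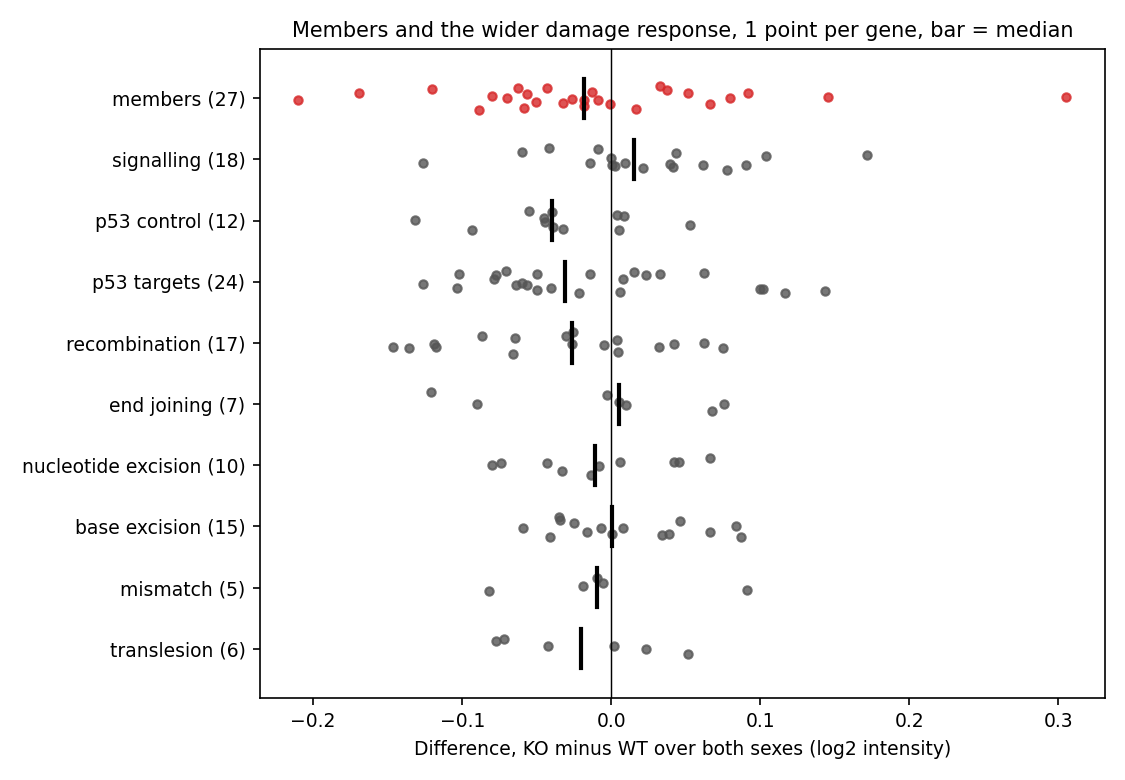
The difference between KO and WT mice over both sexes (x axis, log2 intensity) of the 27 genes (red) and of the 114 further genes of the damage response by role (grey), 1 point per gene, with the median of each as a bar; the number measured is in brackets. Medians lie near 0 in each row, and Cdkn1a at 0.31 is the point farthest from 0.

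The test between the sexes gave no call among the 27 genes. Between 6 females and 6 males 0 of 27 genes passed, where 8 of all genes did (0.0361%). At an unadjusted p under 0.05 there were 3 of 27 (7.93% of all genes): Cdkn1a, with females above males, and Ccng1 and Trp53inp1, with females below. Cdkn1a differed by 0.27 (females minus males, unadjusted p = 0.0436, limma adjusted p = 0.622), and without KO female 3 by 0.19. Ccng1 differed by -0.11 (limma adjusted p = 0.623). Trp53inp1 read 8.24, 8.12, 8.03 in KO females and 8.36, 8.14 and 8.17 in WT females, against 8.21, 8.51 and 8.38 in KO males and 8.37, 8.33 and 8.28 in WT males (difference -0.17, limma adjusted p = 0.6). The mean of females lay above that of males for 6 of the 27 genes and for 33 of the 114 further genes, against 48.7% of all genes. The median difference was -0.05 over the 27, -0.03 over the 114 and -0.0028 over all genes. The genes were read on the same arrays, so these counts are not of independent values.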

How the data were processed

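Total RNA of the cerebellum of 12 mice was measured on Affymetrix arrays. The deposited intensity values are RMA expression values of the core exons from Affymetrix Expression Console, per the labels, on a linear scale. The submitters' processing notes also list Transcriptome Analysis Console 3.0. Background correction, quantile scaling and probe summary were thus done before deposit, and the authors' genome build is not given in the sources used here. RMA draws the arrays to a common distribution, so a change shared by most genes would not be seen.

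Of 41345 rows, 23521 had 1 gene symbol in GEO's platform annotation, 1814 several and 16010 none. Rows with 1 symbol were kept, the brightest for each of 1082 genes with several, which left 22180 genes with no filter on brightness. Atr alone among the genes described had 2 rows. Log2 of each intensity was fitted with limma 3.58.1 in R 4.3.3, with a mean for each of the 4 groups of 3 and 1 shared spread (8 residual degrees of freedom). All tests were two-sided and adjusted by Benjamini-Hochberg over all 22180 genes, with a threshold of 0.05. No batch or pairing is given in the labels, replicate numbers only name arrays, and the extraction protocol describes separate animals.

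The genes and lists were chosen with earlier results of these data known. All genes named by the selection are described. From the wider response the 5 genes with the smallest p per direction over both sexes and the 3 per direction in each other contrast were named, and from each marker list its 3 brightest. Correlations use deviations from the group means, and their p comes from all 1296 permutations of arrays within groups. These p-values were added to a plan that gave the correlations as a description. The fit was tested on simulated data. Alternatives covered the prior spread, normalization, dim genes, rows per gene, array weights, a pseudocount of 16, covariates, fewer arrays and each array left out. Promoter sequences are RefSeq's, and no protein sequences were used.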

Additional observations from a re-analysis of the deposited data

How the results depend on the processing

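Under each of the alternatives run, 0 of the 27 genes passed the test in each of the 5 contrasts. The number of all genes called moved more. Over both sexes it was 5, and became 18 with an intensity trend in the prior spread, 14 among genes above the median brightness, 3 with the choroid plexus covariate and 3 with genotype and sex as additive terms. In females it was 5, and became 26 with the trend, 16 among bright genes and 8 with a pseudocount of 16. In males it was 5 and became 2 with only the 6 male arrays. For the interaction it was 0, and became 2 with the trend, 2 among bright genes and 1 with the pseudocount. For sex it was 8, and became 15 with the trend, 13 among bright genes and 3 with only the 6 wild-type arrays. Leaving out single arrays gave 3 to 8 genes over both sexes, 2 to 4 in males, 3 to 7 in females, 0 to 1 for the interaction and 6 to 8 for sex. Of the 27 genes, those with an unadjusted p under 0.05 over both sexes were 3, and became 5 with the trend and 5 among bright genes. In males they were 2 and became 1 with the pseudocount, in females 2 and 1 with array weights or only the 6 female arrays, for the interaction 2 and 1 with median centring or the choroid plexus covariate, and for sex 3 and 1 with that covariate. Without single arrays they ranged from 2 to 4 over both sexes, 1 to 3 in males, females and the interaction, and 0 to 4 for sex, with 0 without KO female 3 and without WT female 2.

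The differences of 12 genes turned direction, all of them close to 0 but that of Polk (-0.12). With the choroid plexus covariate Chek1 was at 0.004, Chek2 at 0.0251, Sesn2 at 0.0267 and Perp at 0.0905. Atr was at 0.011 with the mean of its rows, Xpc at 0.001 with median centring and Polk at 0.0636 with the oligodendrocyte covariate. Leaving out single arrays gave ranges across 0 for Atr (-0.0389 to 0.0047), Chek1 (-0.077 to 0.0221), Chek2 (-0.0716 to 0.0484), Brca2 (-0.0068 to 0.0729), Xpc (-0.0308 to 0.0186), Trp53inp1 (-0.0621 to 0.0126), Ccng1 (-0.0377 to 0.0132), Gadd45g (-0.0298 to 0.0608), Sesn2 (-0.113 to 0.0442), Bbc3 (-0.0048 to 0.0615) and Perp (-0.175 to 0.0395), and each of the 12 arrays turned at least 1 of these. The counts of genes above and below 0 rest on such values. The other 15 genes kept their direction under each alternative run for them. Among these, the smallest difference in size over the alternatives was -0.13 for Phlda3 and -0.06 for Mdm2. Their highest unadjusted limma p over the alternatives was 0.219 and 0.425. Fewer genes or arrays enter some alternatives by construction, and the cause of the other shifts was not tested. Signal near background limits Chek1, Chek2, Brca1, Bbc3, Pmaip1, Fas and Eda2r. The means of Perp (6.53), Aen (6.63) and Sesn2 (6.73) were above the background limit of 6.47 but close to it. No paired analysis was possible because the replicate numbers only name arrays and no label ties a KO mouse to a WT mouse.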
